A study of Mus musculus with 7 samples.

Results

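The Sox genes encode transcription factors that share a DNA-binding HMG box and are sorted into groups by the similarity of that box. The 10 genes described here were chosen by symbol: Sox1, Sox2 and Sox3 of the SoxB1 group, Sox21 of the SoxB2 group, Sox4 and Sox11 of the SoxC group, Sox5 and Sox6 of the SoxD group, and Sox8 and Sox9 of the SoxE group. All 10 were found, each in 1 row, among 24978 rows of the table, and all 10 passed the filter on low values. SoxB1 factors hold neural progenitors in an undifferentiated state, and Sox21 counters them. SoxC factors act later, in neuronal precursors and newborn neurons, where they switch on genes of the neuronal cytoskeleton. SoxD factors lack a transactivation domain of their own and modify the action of other Sox proteins, and SoxE factors act in the change from neuron to glia production and in astrocytes and oligodendrocytes.

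RNA was sequenced from cells positive for HopX, an atypical homeodomain protein of radial glia, quiescent neural stem cells and astrocytes. The cells were isolated by fluorescence-activated sorting from brains of C57BL/6 mice and are described in the labels as neural progenitor cells. There were 2 libraries from embryonic day 15 (E15), 2 from postnatal day 3 (P3, replicates 1 and 3) and 3 from the adult. No source used here gives the brain region, the age of the adults, the way HopX was detected or whether replicates came from separate animals. Region and stage therefore cannot be told apart, Sox levels depend on the gate, and the p-values reflect the spread among these libraries alone, possibly a technical one.

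Levels are TPM, a length-corrected share of all transcripts, so genes can be compared with each other. Library sums ranged from 998449.5 to 999193, and TPM keeps no record of depth. A gene was tested where 2 or more libraries reached 1 TPM, which left 15931 genes. Differences are on the log2(TPM + 1) scale, which understates changes of low genes, and come from a limma fit over all 7 libraries with Benjamini-Hochberg adjustment over all genes tested.

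Hopx itself was at 62.9 and 60.5 (E15), 171 and 112 (P3) and 219.8, 249 and 229.5 TPM (adult). Of the neural progenitor markers, the filament gene Nes was between 0.321 and 1.69 TPM in the adult, while Pax6, Fabp7, Vim, Prom1 and Hes5 were all at 29.8 TPM or more there. Markers of other cell types were present as well. The summed level of 5 mature neuron markers was 441 and 550.2 (E15), 30.8 and 282 (P3) and 156, 51.5 and 138 TPM (adult). Among them Neurod6, a factor of young excitatory neurons, was at 385 and 492 (E15), 9.88 and 242 (P3) and 0.655, 10.6 and 0.371 TPM (adult). Snap25, another of the 5, was at 28.3 and 30.3 (E15), 15.3 and 28.8 (P3) and 140, 34.5 and 127 TPM (adult). In the adult relative to P3, Snap25 and Syt1 rose and none of the 5 fell (limma, 2 lower at an unadjusted p under 0.05). In the adult relative to E15, Syt1 rose and 2 fell. Of all genes, 8.39% rose and 13.8% fell relative to P3, and 15.4% rose and 24.7% fell relative to E15. The neuronal sum was thus uneven within P3 and within the adult. The sum of 7 microglia markers was 3.31 and 2.66 (E15), 45.4 and 30.2 (P3) and 210, 110 and 189 TPM (adult), and that of 5 ependymal markers was 8.93 and 15.9 (E15), 367 and 252 (P3) and 25.9, 29.3 and 23.9 TPM (adult). Among these 5, Dynlrb2 alone was at 236 and 128 TPM at P3, and Tmem212 passed the filter through P3 libraries alone. Foxj1, another of them, was at most 0.596 TPM in any library and was not tested. Of 6 endothelial markers, 2 passed the filter, Pecam1 and Kdr. In bulk samples, fewer cells of a type and less RNA per cell cannot be told apart.

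The Sox make-up of the HopX-positive cells differed between the stages. SoxC transcripts made up 73.0% and 74.7% of the summed TPM of the 10 genes in the E15 libraries, 33.2% and 63.4% in P3 replicates 1 and 3, and 12.2%, 9.54% and 9.97% in the adult libraries. SoxE transcripts made up 10.7% and 9.47% (E15), 42.4% and 20.4% (P3) and 56.5%, 51.8% and 58.5% (adult). The largest group was therefore SoxC in both E15 libraries, SoxE in all 3 adult libraries, and SoxE in P3 replicate 1 but SoxC in P3 replicate 3. SoxB1 transcripts made up 3.08% and 2.39% (E15), 9.80% and 5.06% (P3) and 15.1%, 13.7% and 18.8% (adult). The SoxD share lay between 9.67% and 22.1% in all 7 libraries, with the highest value in adult replicate 2. A share depends on the other groups as well. The summed SoxD level itself was 165 and 179 (E15), 85.9 and 102 (P3) and 84.8, 141 and 62.1 TPM (adult). The summed level of the 10 genes was 1355 and 1449 (E15), 685 and 1054 (P3) and 641, 638 and 612 TPM (adult).

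**Figure D1:**
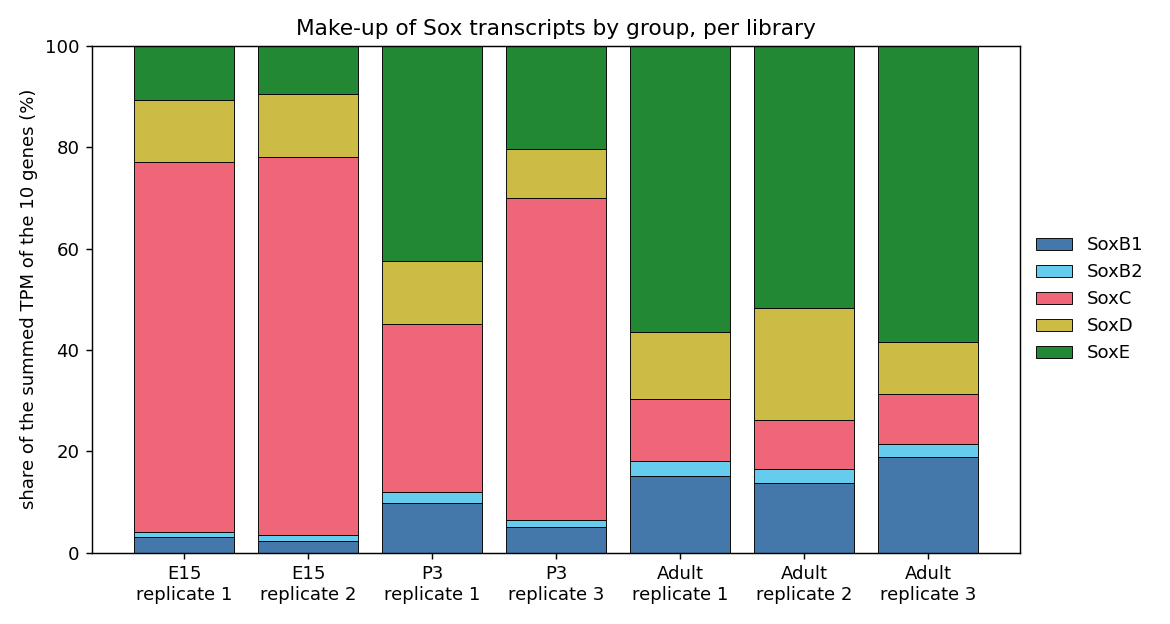
Share of the summed TPM of the 10 Sox genes (y axis, %) taken by each Sox group, in each of the 7 libraries (x axis, ordered by stage). SoxC takes 73.0% and 74.7% at E15 and between 9.54% and 12.2% in the adult, SoxE takes between 51.8% and 58.5% in the adult, and the P3 libraries differ from each other.

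Between the adult and E15, 4 of the 10 genes rose (Sox1, Sox2, Sox8 and Sox9) and 4 fell (Sox3, Sox4, Sox11 and Sox6), while 15.4% of all genes tested rose and 24.7% fell (40.1% in either direction). Between the adult and P3, Sox1 rose and Sox4 and Sox11 fell, while 8.39% of all genes rose and 13.8% fell (22.2% in either direction). Between P3 and E15, Sox9 rose, while 5.56% of all genes rose, and none of the 10 fell (limma, with 3 lower at an unadjusted p under 0.05), while 1.08% of all genes fell (6.63% in either direction). Over the 3 stages together, 7 of the 10 passed the moderated F test in limma, against 37.4% of all genes, and Sox21, Sox5 and Sox6 did not (adjusted p = 0.524, 0.245 and 0.0614). The median log2 difference over the 10 genes was -0.21 for P3 against E15, 0.17 for the adult against P3 and -0.18 for the adult against E15, beside -0.15, -0.13 and -0.30 over all genes tested. These 3 comparisons share libraries, so their values are not independent.

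**Figure D2:**
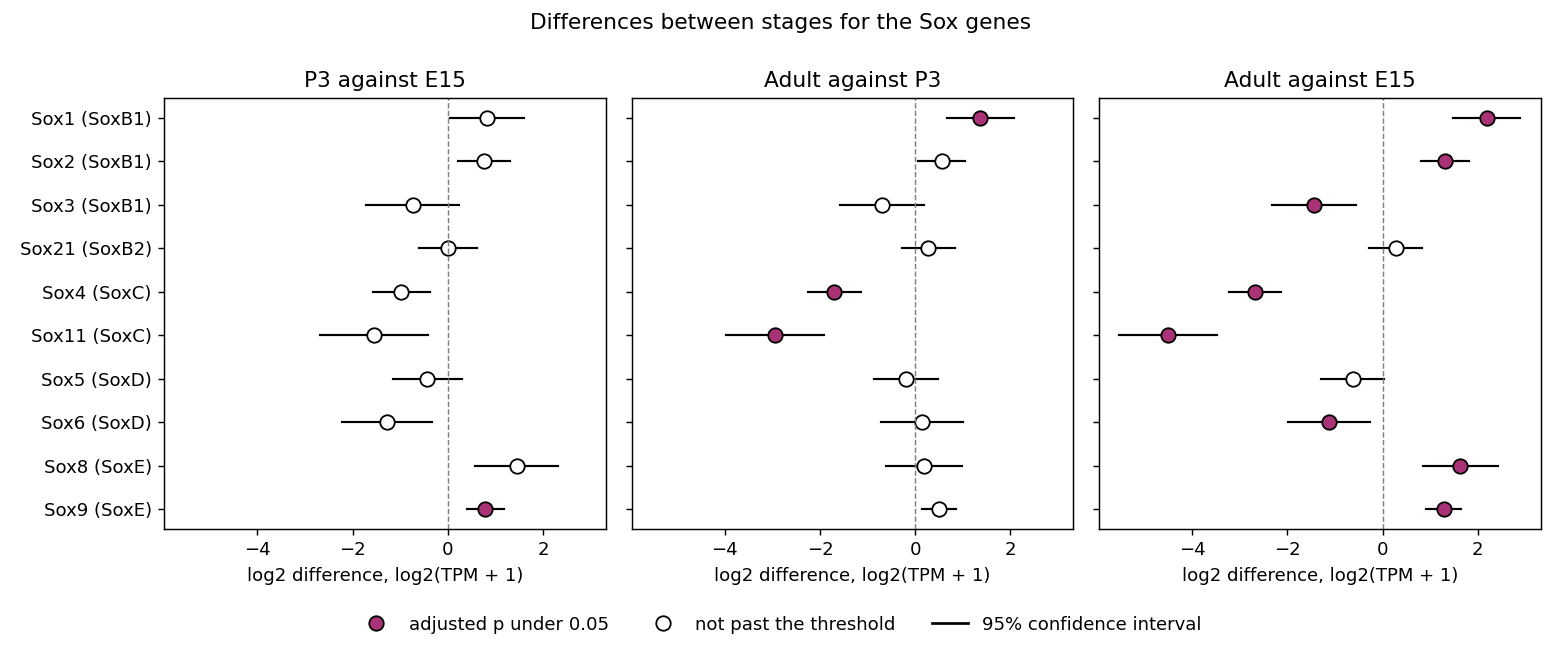
Log2 difference of each Sox gene (rows) in the 3 comparisons of stages (panels), on the log2(TPM + 1) scale, as points with 95% confidence intervals from limma. Filled points passed an adjusted p under 0.05, which holds for 1 gene in P3 against E15, 3 in the adult against P3 and 8 in the adult against E15.

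Sox11 (ENSMUSG00000063632) and Sox4 (ENSMUSG00000076431), the SoxC genes, had the largest log2 differences of the 10 genes in both adult comparisons. Sox11 was at 803 and 875 TPM (E15), 152 and 538 TPM (P3 replicates 1 and 3) and 46.0, 31.0 and 32.9 TPM (adult). The means of Sox11 were 839 ± 51.1 TPM at E15, 345 ± 273 TPM at P3 (SD, n = 2 each) and 36.6 ± 8.16 TPM in the adult (SD, n = 3). Sox4 was at 186 and 208 (E15), 75.3 and 131 (P3) and 31.9, 29.8 and 28.2 TPM (adult). For both genes every P3 library lay below every E15 library and above every adult library. By its level, Sox11 ranked 222 and 199 among the 15931 genes tested in the E15 libraries, and 3013, 4010 and 3612 in the adult libraries.

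Sox11 fell in the adult relative to E15 by 4.50 on the log2 scale (95% interval -5.53 to -3.47, limma, adjusted p = 0.000172), with an adult mean that was 0.0436 of the E15 mean. It also fell in the adult relative to P3, by 2.95 (95% interval -3.98 to -1.92, limma, adjusted p = 0.00315). Sox4 fell by 2.68 in the adult relative to E15 (95% interval -3.23 to -2.12, limma, adjusted p = 0.000107) and by 1.70 relative to P3 (95% interval -2.25 to -1.15, limma, adjusted p = 0.00241). The log2 difference of P3 from E15 was -1.55 for Sox11 and -0.98 for Sox4 and did not pass (limma, adjusted p = 0.107 and 0.0670). These values depended on the P3 library: without P3 replicate 3 they were -2.46 and -1.37 and passed (limma, adjusted p = 0.00677 and 0.0170), and without P3 replicate 1 they were -0.64 and -0.58 and did not (limma, adjusted p = 0.444 and 0.337).

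The P3 libraries differed most for Sox11 among the 10 genes. Replicate 3 exceeded replicate 1 by 1.82 on the log2 scale for Sox11 and by 0.79 for Sox4. The summed level of 14 genes of newborn neurons was 1778 and 2016 TPM (E15), 614 and 1118 TPM (P3 replicates 1 and 3) and 604, 395 and 367 TPM (adult). Not every member followed the sum within P3. Stmn2 was at 21.0 and 11.7 TPM in P3 replicates 1 and 3, and Gap43 at 38.3 and 36.0 TPM. Prox1, at 19.2 and 13.7 TPM, and Ncam1, at 159 and 122 TPM, were lower in replicate 3 too. Of those 14 genes, 6 fell in the adult relative to P3 and none rose (limma, none higher at an unadjusted p under 0.05), and 12 fell and 2 rose in the adult relative to E15. Of all genes tested, 13.8% fell and 8.39% rose relative to P3, and 24.7% fell and 15.4% rose relative to E15. The share of the 14 that rose relative to E15 was thus near that of all genes. The median log2 difference of the list was -1.68 for the adult against P3 and -2.79 for the adult against E15, beside -0.13 and -0.30 over all genes. Eomes, a factor of intermediate progenitors, differed by -3.01 and -4.23 in these comparisons, Dcx, a microtubule protein of migrating neurons, by -2.30 and -4.01, and the RNA-binding protein gene Elavl4 by -2.51 and -3.96. Neurog2, a proneural factor, fell by 2.20 in the adult relative to P3, and Tubb3, a neuronal tubulin, fell by 4.96 in the adult relative to E15. The 2 genes that rose in the adult relative to E15 were Prox1 (0.87) and the adhesion molecule gene Ncam1 (0.76), which were named after their values were seen. In P3 relative to E15, no call was made among the 14 (limma, with 9 lower and none higher at an unadjusted p under 0.05), while 5.56% of all genes rose and 1.08% fell. The median of the list was -1.25 there, beside -0.15 over all genes, with Elavl4 at -1.46 and Tubb3 at -2.76. The part of newborn neurons in the SoxC values was not tested.

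The ratio between the 2 SoxC genes was lower in every adult library than in any E15 library. The ratio of Sox11 to Sox4 TPM was 4.31 and 4.21 (E15), 2.01 and 4.11 (P3) and 1.44, 1.04 and 1.17 (adult). Across the 7 libraries, their log2 values had a Pearson r of 0.996, the highest among all pairs of the 10 genes, where the points share their libraries and fall into 3 stages. Because these genes moved together, the 250 bases before their RefSeq transcription starts are shown, 5′ to 3′ on the gene's strand (GRCm38.p6, chr13:28953700-28953949 for Sox4 and chr12:27342719-27342968 for Sox11, both on the minus strand). Capitals mark the CCAAT box (CCAAT) and the GC box (GGGCGG) on either strand, the motifs found there among 5 searched.
Sox4: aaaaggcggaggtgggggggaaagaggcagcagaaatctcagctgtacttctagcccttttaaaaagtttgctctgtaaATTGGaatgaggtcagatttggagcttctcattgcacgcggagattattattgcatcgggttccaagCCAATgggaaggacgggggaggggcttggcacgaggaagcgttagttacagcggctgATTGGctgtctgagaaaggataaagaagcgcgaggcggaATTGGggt
Sox11: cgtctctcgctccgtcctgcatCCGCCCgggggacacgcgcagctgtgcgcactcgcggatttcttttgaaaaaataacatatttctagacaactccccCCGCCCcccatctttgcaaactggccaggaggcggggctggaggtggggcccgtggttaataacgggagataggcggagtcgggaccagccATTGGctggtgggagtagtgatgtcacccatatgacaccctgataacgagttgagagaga
The Sox4 window held 4 CCAAT boxes, the nearest of them beginning 8 bases before the start, and no GC box. The Sox11 window held 1 CCAAT box, 60 bases before the start, and 2 GC boxes, 228 and 151 bases before it. Of 32851 RefSeq windows of the same length, 33.8% held a CCAAT box and 32.7% a GC box. The other motifs searched were absent from both windows: the SOX cores AACAAT (in 9.42% of all windows) and ACAAAG (16.5%, also the core of TCF sites), and the TATA box TATAAA (12.4%). No marked matches overlapped, and a match is only a run of letters.

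**Figure D3:**
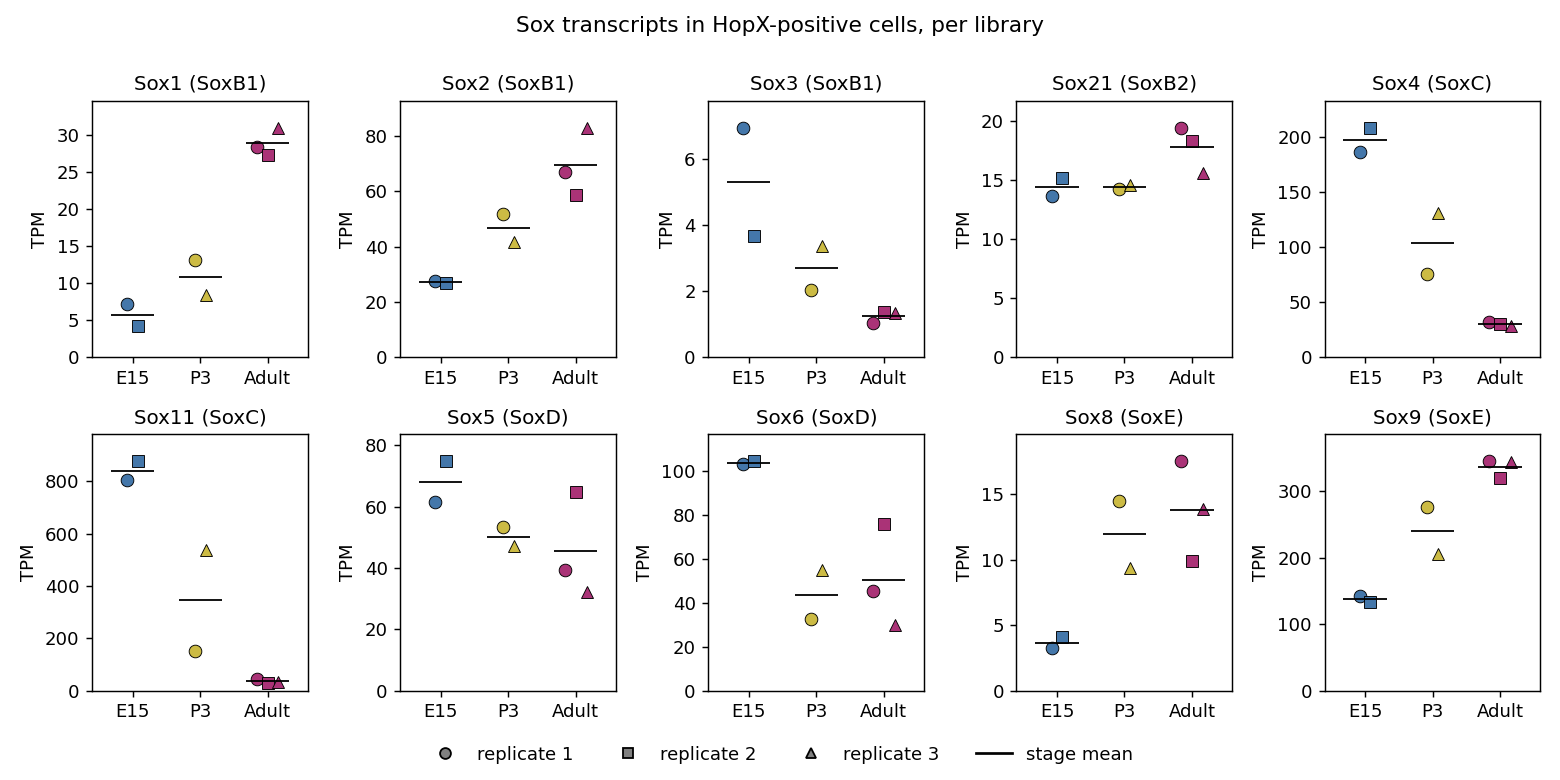
TPM of the 10 Sox genes (panels, linear y axis from 0) in each library, grouped by stage on the x axis, with symbols for the replicate number and a line at the stage mean. Sox1, Sox2 and Sox9 lie higher at each later stage and Sox3, Sox4 and Sox11 lower, without overlap of libraries.

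The SoxB1 genes moved in opposite directions. Sox2 (ENSMUSG00000074637), which is needed to maintain neural stem cells, was at 27.6 and 26.7 (E15), 51.9 and 41.6 (P3) and 67.1, 58.7 and 82.9 TPM (adult). Sox1 (ENSMUSG00000096014), an early marker of the neural plate, was at 7.22 and 4.26 (E15), 13.1 and 8.45 (P3) and 28.4, 27.3 and 31.0 TPM (adult). Both were higher at each later stage with no overlap of libraries. Sox3 (ENSMUSG00000045179), an X-linked progenitor gene, was at 6.95 and 3.68 (E15), 2.04 and 3.36 (P3) and 1.03, 1.39 and 1.35 TPM (adult), and so was lower at each later stage, again with no overlap.

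Of the 2 genes that rose, Sox1 had the larger log2 difference, though the genes were not tested against each other. Its log2 difference was 2.18 in the adult against E15 (95% interval 1.47 to 2.90, limma, adjusted p = 0.000971) and 1.37 in the adult against P3 (95% interval 0.66 to 2.08, limma, adjusted p = 0.0163). The call against P3 was lost without P3 replicate 3 (log2 1.08, limma, adjusted p = 0.138). Sox2 rose by 1.31 in the adult relative to E15 (95% interval 0.82 to 1.81, limma, adjusted p = 0.00203). Each of its steps was smaller and did not pass, with 0.75 for P3 against E15 (95% interval 0.21 to 1.30, limma, adjusted p = 0.103) and 0.56 for the adult against P3 (95% interval 0.06 to 1.05, limma, adjusted p = 0.103). Sox3 fell by 1.44 in the adult relative to E15 (95% interval -2.32 to -0.56, limma, adjusted p = 0.0183). The Sox3 call was lost without E15 replicate 1 (log2 -1.06, limma, adjusted p = 0.131), the library in which the gene was highest, and its value was -0.70 with a pseudocount of 5. For P3 against E15, the differences of Sox1 (0.81, 95% interval 0.03 to 1.59) and Sox3 (-0.74, 95% interval -1.71 to 0.22) did not pass (limma, adjusted p = 0.194 and 0.329).

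Sox2 outweighed the other SoxB1 genes in every library, and by most over Sox3 in the adult. The ratio of Sox2 to Sox3 TPM was 3.97 and 7.24 (E15), 25.4 and 12.4 (P3) and 65.3, 42.4 and 61.5 (adult). The ratio of Sox2 to Sox1 TPM was 3.83 and 6.26 (E15), 3.95 and 4.92 (P3) and 2.36, 2.15 and 2.68 (adult), so every adult library lay below every earlier one. Sox2 lies within the long non-coding gene Sox2ot in RefSeq (GRCm38.p6). Sox2ot was sought by symbol and had no row of its own, and no source used here says whether reads were counted by strand. The part of Sox2ot in the Sox2 values was therefore not tested. The windows of the 2 genes that rose are shown for comparison with the SoxC windows, both on the plus strand (chr8:12395269-12395518 for Sox1 and chr3:34649745-34649994 for Sox2, GRCm38.p6), with capitals for the CCAAT box, the GC box and the core ACAAAG on either strand.
Sox1: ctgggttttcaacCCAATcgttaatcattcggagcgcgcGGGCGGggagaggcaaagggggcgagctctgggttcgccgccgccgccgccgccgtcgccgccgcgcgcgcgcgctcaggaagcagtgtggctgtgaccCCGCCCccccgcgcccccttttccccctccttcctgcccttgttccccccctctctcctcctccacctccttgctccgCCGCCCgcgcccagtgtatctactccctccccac
Sox2: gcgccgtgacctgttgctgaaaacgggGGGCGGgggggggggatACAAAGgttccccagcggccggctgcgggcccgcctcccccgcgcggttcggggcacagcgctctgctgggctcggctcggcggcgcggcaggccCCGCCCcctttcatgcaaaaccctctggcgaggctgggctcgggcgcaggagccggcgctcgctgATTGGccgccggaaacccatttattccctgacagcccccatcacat
Sox1 held 3 GC boxes and 1 CCAAT box, 237 bases before the start. Sox2 held 2 GC boxes, 1 CCAAT box, 46 bases before the start, and 1 match to ACAAAG, 206 bases before it, with no overlap between the matches. CG dinucleotides numbered 29 in the Sox1 window and 27 in the Sox2 window, against 11 for Sox4, 17 for Sox11 and a median of 6 over all windows. RefSeq windows were matched by symbol for 8 of the 10 genes, and Sox3 and Sox9 had no entry. The SOX core AACAAT was found in 1 of the 13 windows of these 8 genes, a window of Sox6, and ACAAAG in 6, of which 5 belong to Sox6 and 1 to Sox2.

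Sox21 (ENSMUSG00000061517), the SoxB2 gene, which represses SoxB1 targets and promotes neuronal differentiation, varied least. It was at 13.7 and 15.2 (E15), 14.2 and 14.6 (P3) and 19.4, 18.3 and 15.6 TPM (adult), so every adult library lay above every earlier one. The highest library was 1.42 times the lowest, against 2.32 to 28.3 times for the other 9 genes. None of its differences passed (limma, adjusted p = 1 for P3 against E15, 0.463 for the adult against P3 and 0.392 for the adult against E15). The intervals were -0.61 to 0.61, -0.28 to 0.83 and -0.28 to 0.83 on the log2 scale, so increases of more than 0.83 lay outside all 3. With median-of-ratios scaling, the difference of the adult from E15 was 0.57, against 0.28 as reported, and did not pass (limma, adjusted p = 0.0728). The ratio of Sox2 to Sox21 TPM was 2.02 and 1.76 (E15), 3.65 and 2.85 (P3) and 3.46, 3.22 and 5.32 (adult).

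Partners and progenitor genes linked to SoxB factors did not move as a block. The list held 14 genes, of which 13 were tested. Of these, 1 rose and 1 fell in P3 relative to E15, where 5.56% of all genes rose and 1.08% fell. In the adult relative to P3, 1 rose and 5 fell, where 8.39% of all genes rose and 13.8% fell. In the adult relative to E15, 1 rose and 6 fell, where 15.4% of all genes rose and 24.7% fell. The median log2 differences of the list were -0.10, -0.15 and -0.54 in this order of comparisons, beside the -0.15, -0.13 and -0.30 of all genes. Fabp7, the brain lipid-binding protein of radial glia, rose by 1.97 in P3 relative to E15. It fell in the adult, by 3.11 relative to P3 and by 1.14 relative to E15. Pax6, a radial glial factor that pairs with SOX2 on DNA in the eye, fell by 1.01 in P3 relative to E15. In the adult, Pax6 fell by 1.60 relative to E15. Nes fell by 2.25 and 3.43 in the adult relative to P3 and E15, Vim, an intermediate filament, by 1.58 and 1.89, and Hes5, a Notch effector, by 1.37 and 2.01. Chd7, a chromatin remodeler that binds SOX2, fell by 1.88 in the adult relative to E15. Prom1, a membrane protein of neural stem cells and the only gene of the list to rise in the adult, differed by 1.29 from P3 and by 1.35 from E15, and was named after its values were seen. The POU factor genes Pou3f2 and Pou3f3, whose products act with SOX2 on shared neural enhancers, were named after their values were seen and did not pass in any comparison (limma). Their levels lay between 23.7 and 46.5 TPM and between 40.0 and 53.8 TPM over all 7 libraries.

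Both SoxE genes rose in the adult relative to E15. Sox9 (ENSMUSG00000000567), which drives the start of gliogenesis and stays on in astrocytes, was at 142 and 133 (E15), 276 and 206 (P3) and 345, 320.3 and 344 TPM (adult). Its means were 138 ± 6.38 TPM at E15, 241 ± 49.4 TPM at P3 (SD, n = 2 each) and 336 ± 14.0 TPM in the adult (SD, n = 3). Sox9 was higher at each later stage with no overlap of libraries, and the adult libraries lay close together. Sox8 (ENSMUSG00000024176), a relative that supports oligodendrocyte development together with Sox10, was at 3.28 and 4.07 (E15), 14.5 and 9.41 (P3) and 17.5, 9.94 and 13.9 TPM (adult). Every later library of Sox8 lay above both E15 libraries, while those of P3 and the adult overlapped.

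Sox9 rose by 1.28 in the adult relative to E15 (95% interval 0.92 to 1.64, limma, adjusted p = 0.000468). It also rose by 0.79 in P3 relative to E15 (95% interval 0.39 to 1.18, limma, adjusted p = 0.0342). That call was lost in 10 of 18 alternatives, among them the fits without E15 replicate 1, E15 replicate 2, P3 replicate 1, adult replicate 2 or adult replicate 3 (limma, adjusted p = 0.154, 0.235, 0.183, 0.0525 and 0.0536). The difference of the adult from P3 was 0.49 and did not pass (95% interval 0.13 to 0.86, limma, adjusted p = 0.0558), but it passed without P3 replicate 1 (0.70, limma, adjusted p = 0.0260). Sox8 rose by 1.63 in the adult relative to E15 (95% interval 0.84 to 2.43, limma, adjusted p = 0.00659), and the call was lost without E15 replicate 1 (1.51, limma, adjusted p = 0.0654). The difference of Sox8 between P3 and E15 was 1.45 (95% interval 0.58 to 2.32, limma, adjusted p = 0.0623), and between the adult and P3 it was 0.19 (95% interval -0.61 to 0.98, limma, adjusted p = 0.746). Sox9 exceeded Sox8 in every library, by a ratio of 43.4 and 32.7 (E15), 19.0 and 21.9 (P3) and 19.7, 32.2 and 24.8 (adult).

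Genes of the astrocyte line were set beside Sox9. Of 11, all tested, 7 rose and none fell in P3 relative to E15 (limma, 2 lower at an unadjusted p under 0.05), 2 rose and 3 fell in the adult relative to P3, and 7 rose and 3 fell in the adult relative to E15. Of all genes, 5.56% rose and 1.08% fell in the first comparison, 8.39% and 13.8% in the second, and 15.4% and 24.7% in the third. The share of the 11 that fell in the adult relative to E15 was thus near that of all genes. The median log2 differences of the list were 2.34, -0.14 and 3.09, beside -0.15, -0.13 and -0.30 over all genes. Aqp4, a water channel, led the increases in P3 and in the adult relative to E15 (log2 6.14 and 6.00), followed by the filament gene Gfap (6.10 and 4.93), the folate enzyme gene Aldh1l1 (4.60 and 4.71) and the glutamate transporter gene Slc1a3 (3.04 and 4.36). Mmd2 (2.34) and Zcchc24 (2.41), known as joint targets of SOX9 and NFIA, also rose in P3 relative to E15 and were named for that role after their values were seen. Mmd2 was at 166 and 128 (E15), 949 and 579 (P3) and 766, 860 and 738 TPM (adult). Apcdd1, another known joint target and an inhibitor of Wnt signaling, was at 5.73 and 2.71 (E15), 1.84 and 3.39 (P3) and 2.28, 0.987 and 1.10 TPM (adult) and did not pass in any comparison (limma). Nfia, the partner of SOX9 in gliogenesis, fell by 1.07 in the adult relative to P3, and its relatives Nfib and Nfix fell by 1.73 and 1.92. Slc1a3 and Fgfr3, a growth factor receptor of astrocytes, were the 2 that rose in the adult relative to P3 (1.32 and 2.61).

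Sox8 was read beside genes of the oligodendrocyte line. Sox10, the SoxE gene that directs oligodendrocyte differentiation, was at 0 and 0.0476 TPM at E15, listed at 0 in both P3 libraries, and at 0.884, 0 and 0 TPM in adult replicates 1, 2 and 3. Of 17 oligodendrocyte genes, 15 were tested, and 4 of these passed the filter through adult libraries alone. Olig1 (log2 4.08), Olig2 (2.52) and the myelin enzyme gene Cnp (2.23) rose in P3 relative to E15, and none fell (limma, none lower at an unadjusted p under 0.05). None passed in the adult relative to P3 (limma, 6 higher and 1 lower at an unadjusted p under 0.05), where Cnp differed by 0.87. In the adult relative to E15, 5 rose and none fell (limma, none lower at an unadjusted p under 0.05), among them Cnp (3.10), Olig1 (3.02) and Olig2 (2.14). The share of all genes that rose was 5.56% in P3 relative to E15, 8.39% in the adult relative to P3 and 15.4% in the adult relative to E15. The 5 genes that rose in the adult relative to E15 did not include the 4 that passed through adult libraries alone. The summed level of the list was 28.4 and 36.1 (E15), 114 and 69.3 (P3) and 656, 101 and 462 TPM (adult). Sox8 followed the same order within the adult, lowest in replicate 2. In the fit that kept only replicate 2 of the adult, the log2 difference of Sox8 in the adult relative to E15 was 1.23, against 1.63 with all 3, and did not pass with that 1 library (limma, adjusted p = 0.0797). The part of oligodendrocytes in the Sox8 values was not tested.

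The SoxD genes were high at E15 and uneven among the adult libraries. Sox6 (ENSMUSG00000051910), which acts in interneuron and oligodendrocyte precursors, was at 103 and 104 (E15), 32.6 and 54.8 (P3) and 45.3, 76.0 and 29.8 TPM (adult). Sox5 (ENSMUSG00000041540), which times the birth of deep-layer cortical projection neurons, was at 61.7 and 74.8 (E15), 53.3 and 47.2 (P3) and 39.5, 64.8 and 32.3 TPM (adult). Adult replicate 2 was the highest adult library for both genes. For Sox6 it lay above both P3 libraries, and for Sox5 it lay above E15 replicate 1.

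Sox6 fell by 1.13 in the adult relative to E15 (95% interval -1.99 to -0.26, limma, adjusted p = 0.0432). This call was lost in 14 of 18 alternatives, among them each fit that left out 1 library other than adult replicate 2 (limma, adjusted p = 0.0626 to 0.198). With median-of-ratios scaling it was -0.82 (limma, adjusted p = 0.117), and -0.44 when the fit lacked adult replicates 1 and 3 (limma, adjusted p = 0.363). Sox5 differed by -0.63 in the adult from E15 (95% interval -1.30 to 0.04, limma, adjusted p = 0.121), and without adult replicate 2 it fell by 0.91 (limma, adjusted p = 0.0170). In P3 against E15, the differences were -1.27 for Sox6 (95% interval -2.22 to -0.33, limma, adjusted p = 0.112) and -0.43 for Sox5 (95% interval -1.16 to 0.30, limma, adjusted p = 0.459). In the adult against P3, the intervals of Sox6 (-0.72 to 1.01) and Sox5 (-0.87 to 0.47) lay on both sides of 0.

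Adult replicate 2 exceeded the mean of the other adult libraries by 1.03 for Sox6 and 0.84 for Sox5 on the log2 scale, while Sox8 was lower there by 0.60 (-0.60). The other 7 genes lay between -0.34 and 0.13. The ratio of Sox6 to Sox5 TPM was 1.67 and 1.40 (E15), 0.611 and 1.16 (P3) and 1.15, 1.17 and 0.925 (adult). Of the adult libraries, replicate 2 also had the lowest sums of oligodendrocyte, microglia and mature neuron genes, as given above. Not every member followed its sum. The mature neuron marker Neurod6 was at 0.655, 10.6 and 0.371 TPM in adult replicates 1, 2 and 3, and the microglia marker Aif1 at 16.1, 16.7 and 5.70 TPM. Of the oligodendrocyte genes, Nkx2-2 was at 1.89, 4.15 and 0.685 TPM and Cnp at 88.3, 74.2 and 59.6 TPM in these libraries. The part of these cell types in the SoxD values was not tested.

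**Figure D4:**
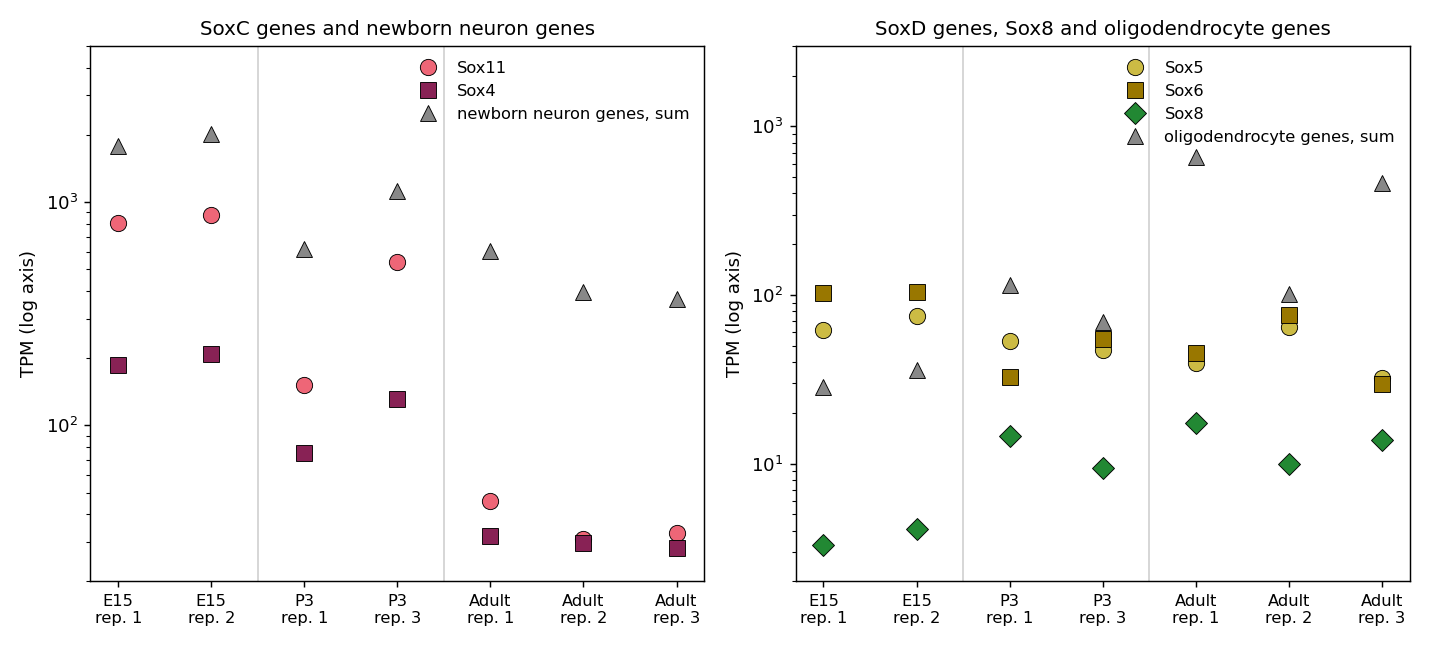
TPM on a log axis in each of the 7 libraries, for Sox11, Sox4 and the sum of 14 newborn neuron genes (left) and for Sox5, Sox6, Sox8 and the sum of 17 oligodendrocyte genes (right). On the left, P3 replicate 3 lies above P3 replicate 1 in all 3 series, and on the right adult replicate 2 is the highest adult library for Sox5 and Sox6 and the lowest for Sox8 and the oligodendrocyte sum.

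Genes of deep-layer projection neurons and of interneurons, the neurons in which SoxD factors are best known, were set beside Sox5 and Sox6. Of 11, 8 were tested, of which Lhx6 and Sst passed the filter through libraries of 1 stage alone, and no call was made in P3 relative to E15 (in limma, 1 was higher and 1 lower at an unadjusted p under 0.05), where Fezf2 and Tbr1 differed by -0.30 and -1.45. In the adult relative to P3, 1 rose and 2 fell, Sst among them, where 8.39% of all genes rose and 13.8% fell. In the adult relative to E15, 1 rose and 4 fell, Lhx6 among them, where 15.4% of all genes rose and 24.7% fell, so that the share that rose was near that of all genes in both. Fezf2, a factor of subcerebral projection neurons that is also found in cortical progenitors, was the one that rose, by 1.07 and 0.78. Its level was 43.7 and 42.4 (E15), 38.4 and 31.6 (P3) and 93.1, 61.2 and 72.0 TPM (adult). Tbr1, a factor of deep-layer neurons that the newborn neuron list holds too, differed by -1.89 in the adult from P3 and by -3.34 from E15, and both passed. Sst, an interneuron peptide, was at 1.26 and 2.68 TPM at P3 and listed at 0 in the E15 and adult libraries. Since Sst was tested only because of its P3 level, no weight is put on its call. Bcl11b, a partner of Fezf2 in projection neurons, and Gad2, an enzyme of GABA synthesis, also fell in the adult relative to E15 (-2.18 and -1.20). Lhx6, an interneuron factor, was at 1.05 and 1.10 TPM at E15 and under 1 TPM in the other libraries, and since it was tested only because of its E15 level, no weight is put on its call.

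The P3 libraries stood at unequal distances from E15 for most of the family. For 8 of the 10 genes, the log2 value of P3 replicate 3 was nearer the E15 mean than that of replicate 1, the exceptions being Sox21 and Sox5, and the same held for 70.8% of all genes tested. Sox1, Sox8, Sox9 and Sox2 were lower in replicate 3 than in replicate 1, by -0.58, -0.57, -0.42 and -0.31 on the log2 scale, and Sox6 and Sox3 were higher, by 0.73 and 0.52. Over all 3 stages, Sox1, Sox2 and Sox9 were higher at each later stage and Sox3, Sox4 and Sox11 lower, with no overlap of libraries, which held for 7.89% and 12.4% of all genes tested.

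Across the 7 libraries, Sox1, Sox2 and Sox9 ran together and opposite to SoxC, and Sox8 did so less closely. As a description over libraries that fall into 3 stages, Pearson r of log2 values was 0.979 for Sox2 and Sox9, 0.958 for Sox1 and Sox9, and 0.949 for Sox1 and Sox2. For Sox8 it was 0.929 with Sox9, 0.910 with Sox2, 0.799 with Sox1, -0.812 with Sox4 and -0.789 with Sox11. It was -0.989 for Sox1 and Sox4, -0.953 for Sox2 and Sox4, -0.979 for Sox1 and Sox11, and -0.952 for Sox9 and Sox11. Sox5 and Sox6 had an r of 0.820. Outside the family, the most similar patterns were sought among 8848 genes with a stage mean of 10 TPM or more. They were those of Dusp14 (r = 0.999) and the ribosomal protein gene Rps25 (0.998) for Sox4, and of Plppr1, a neuronal membrane protein gene, and Ivns1abp (both 0.999) for Sox11. Plppr1 was at 69.7 and 73.1 (E15), 6.06 and 35.0 (P3) and 0.674, 0.114 and 0.0316 TPM (adult). For Sox9 they were Slc3a2, a subunit of amino acid transporters (0.999), and Aamdc (0.998). For Sox1 they were Prnp, the prion protein gene, and Thbs3 (both 0.996). For Sox2 they were Ank, a membrane protein of pyrophosphate export (0.995), and Lrp4 (0.994), and for Sox3 Snw1 (0.994) and Zfp106 (0.989). Sox8 was closest to Atp6ap1 (0.992) and Slc35g2 (0.990), and Sox21 to Rasal2 (0.985) and Atp11b (0.983). Lower values were reached for Sox6, with Dda1 (0.981) and Map2k6 (0.977), and for Sox5, with Metap1 (0.968) and Pcnx (0.966).

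Of 10 further genes sought, Sox2ot among them, 7 were found and 3 were tested. Sox12, the third SoxC gene, was at 9.01 and 11.9 (E15), 4.87 and 7.07 (P3) and 5.32, 2.68 and 2.08 TPM (adult). It fell by 1.45 in the adult relative to E15 (limma, adjusted p = 0.0216), so that all 3 SoxC genes fell in that comparison. Sox13, the third SoxD gene, stayed between 0.513 and 1.73 TPM and did not pass in any comparison (limma). Sox7, a SoxF gene of endothelial cells, was at 0.119 and 0.233 (E15), 3.60 and 2.58 (P3) and 3.57, 0.689 and 1.15 TPM (adult), and did not pass (limma, adjusted p = 0.0833 to 0.356). Its relative Sox18 was at most 0.454 TPM in any library, and the endothelial tight junction gene Cldn5 at most 0.360 TPM, while Pecam1 lay between 87.7 and 186 TPM in all 7 libraries. Sox10, Sox15, Sox18 and Sox30 stayed under 1 TPM in every library and were not tested.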

How the data were processed

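The authors deposited 1 table of TPM, which holds 24978 rows and a column for each library. Bowtie, bcl2fastq and the build mm9 are named per the submitters' processing notes. The annotation and the program behind the TPM values: not given in the sources used here. TPM holds no depth, so no count model, counting interval or floor was used, and an exact 0 can be a failed estimate.

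The stage given in each label set the group of a library. Values were transformed to log2(TPM + 1) and fitted in limma 3.58.1 under R 4.3.3 (functions lmFit and eBayes, trend on), with stage as the only term and all 7 libraries in the fit (4 residual degrees of freedom, prior 4.27). The threshold was a Benjamini-Hochberg adjusted p under 0.05 over the 15931 genes tested. The scripts were tested on simulated data.

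The 10 genes, the other gene lists and the tests were chosen with earlier results of these data known. All 10 genes were reported. From each other list, up to 4 members with the largest change past the threshold were named in a comparison, or the 2 with the highest mean where none passed. For marker lists of other cell types, summed levels and single examples are given, with counts of calls for the mature neuron markers. Beyond this rule, Pou3f2, Pou3f3, Prom1, Prox1, Ncam1, Nfia, Mmd2, Zcchc24, Apcdd1, Cldn5 and Pecam1 were named after their values were seen, and 1 gene that the rule takes is not reported here. For each of the 10, the text gives the 2 genes with the highest Pearson r over the libraries. Promoter windows were taken from RefSeq (GRCm38.p6) by symbol, not by coordinates, and no other coordinates are given, since the table was made on mm9.

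The alternatives were pseudocounts of 0.1 and 5, no trend, quantile normalization, median-of-ratios scaling, no filter, a mean of 5 TPM or more, a replicate block, fits on the compared stages alone, summing rows of a symbol, leaving out each library, and leaving out adult replicates 1 and 3 together. Where a stage was left with 1 library, it was assumed to vary like the others.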

Additional observations from a re-analysis of the deposited data

How the results depend on the processing

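No log2 change that passed turned its direction under any alternative. The falls of Sox4 and Sox11 and the increases of Sox1, Sox2 and Sox9 in the adult relative to E15 passed under all 18 alternatives, and the fall of Sox4 in the adult relative to P3 did as well. The count of genes that rose in P3 relative to E15 (1 as reported) was 0 with no filter, without the trend, with the replicate block, in the fit on the 2 stages alone and in the fit without adult replicates 1 and 3. It was 2, with Sox8 added, with a mean of 5 TPM or more and with median-of-ratios scaling, and it lay between 0 and 1 with 1 library left out. The count that rose in the adult relative to P3 (1 as reported) was 2, with Sox9 added, with median-of-ratios scaling, quantile normalization or a mean of 5 TPM or more, 0 in the fit lacking both adult replicates 1 and 3, and between 0 and 2 with 1 library left out. The count that fell in P3 relative to E15 (0 as reported) was 1, Sox4, with a mean of 5 TPM or more, and between 0 and 2 with 1 library left out. The count that fell in the adult relative to P3 (2 as reported) was 1 in the fit lacking both adult replicates 1 and 3. The count that fell in the adult relative to E15 (4 as reported) was 2 in that same fit and between 2 and 5 with 1 library left out. The count that rose in the adult relative to E15 (4 as reported) lay between 3 and 4 with 1 library left out. The cause of these changes was not tested, but fits with a stage of 1 library have fewer samples, and the filters changed the number of genes tested from 15931 to 10221 and 24836. Median-of-ratios scaling moved the median log2 difference of all genes in the adult relative to E15 to -0.05 (-0.30 as reported), and called genes were then higher in 53% of cases (38.5% as reported), with 48.2% (37.9% as reported) in the adult relative to P3. Changes of the Sox genes smaller than this shift should be read relative to it. Libraries that share a replicate number did not deviate together (r between -0.0232 and 0.0207 over genes). With 2 or 3 libraries a stage, this cannot show whether they share an origin. No label says what a replicate number marks, so the replicate block may pair samples that share only a number.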
